A study of Mus musculus with 21 samples.

Results

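The comparison is of 7 of the 21 heart libraries of a study of Lmna loss in adult mice: 4 of genotype Lmna F/F and 3 of genotype Lmna +/+, none of which carried the Uprt transgene. They were chosen by their genotype label, which matched the genotype given in the count table for all 21 libraries. F is the floxed allele, which Cre recombinase deletes. Both groups carried Myh6MCM Tg/0, a tamoxifen-activated Cre (MerCreMer) driven by the promoter of Myh6, the adult cardiac myosin heavy chain, so deletion was directed at cardiomyocytes and other heart cells keep the floxed gene. Both also received tamoxifen on 4 days at 6 to 8 weeks of age and 4-thiouracil 2 weeks later, and RNA of the left-ventricular free wall was taken 6 hours after that. The F/F hearts came from 2 males (replicates 1 and 4) and 2 females (replicates 2 and 3), and the 3 +/+ hearts were all male. The other 14 libraries came from mice with Uprt, 8 Lmna +/+ and 6 Lmna F/F, and serve here to estimate the spread and the effect of sex and as another setting of the same deletion.

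Lmna encodes lamin A and lamin C, filament proteins that line the inside of the nuclear envelope, hold the nucleus in shape and bind chromatin. Mutations of the gene cause dilated cardiomyopathy with conduction disease, among other disorders. Uprt is an enzyme that lets cells build 4-thiouracil into new RNA, which is then read as a T>C conversion after alkylation. Without Uprt the T>C reads are a background of sequencing error, sequence variants and labelling that does not need the enzyme, and all reads together give ordinary 3′ end expression.

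The 7 libraries held 33830412 to 50951631 reads on annotated 3′ UTR intervals, of which 26.3% to 29.7% were mitochondrial and 9.72% to 10.96% mapped to several places. Unique reads on the Y chromosome numbered 5806 to 8251 in the 5 libraries labelled male and 205 and 214 in the 2 labelled female. A locus here is the most read of the overlapping intervals on a strand, with separate intervals that share a transcript added, and 20523 of 46278 loci had enough reads to test. The intervals carry Ensembl transcript IDs that the supplied reference did not pair with gene names, so nuclear loci are given by position in mm39. The level of Lmna itself, the check of heart markers and the prepared gene lists therefore could not be read. In whole-tissue RNA, fewer cells of a type and less RNA per cell cannot be told apart. Values are CPM, read counts over the library total in its usual unit, with totals scaled by TMM factors. Each library was taken as 1 heart; p-values measure the spread between these libraries.

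Deletion of Lmna without Uprt went with more reads at 1112 loci and fewer at 716 (5.42% and 3.49% of those tested; edgeR quasi-likelihood test, Benjamini-Hochberg adjusted p under 0.05, sex as a term). The loci that rose were near all loci tested in expression: their median in the +/+ hearts was 3.02 CPM, against 3.23 CPM. Of the 1112, 331 were under 1 CPM, as were 6722 of the 20523 tested. The loci that fell were of higher expression, with a median of 38.5 CPM, against 3.23 CPM over all loci tested. The rises were also larger. The median log2 change was 1.52 at the loci that rose and -0.73 at those that fell, and 825 of the 1112 but 147 of the 716 passed 2-fold. Of the 1112 loci, 32 had no read in the +/+ hearts; with these set to a floor of 3 reads over that group the median remained 1.52. The level was read in the +/+ hearts, where a rise starts low and a fall starts high. A call at few reads also needs a larger change. Both contrasts therefore depend in part on which loci could be called.

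These counts rest on the spread shared with the 14 mice with Uprt. In a fit of the 7 libraries alone 2 loci rose and 0 fell of 18702 (4018 at an unadjusted p under 0.05), and with sex as a term 5 rose. A limma fit that gave each group a single weight for its spread, the same at all loci, called 941 higher and 804 lower. The lowest weight was that of the F/F hearts without Uprt (0.661, against 1.04 to 1.16 for the other 3 groups). The spread at each locus was still pooled over the groups. Scaling by library size alone gave 1528 higher and 319 lower, so the share of rises among calls was 82.7% in place of 60.8%, and in males alone 759 rose and 262 fell.

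At 1.66% of loci (340) a rise, and at 0.453% (93) a fall, was called with each of the 7 libraries left out in turn. All 4 F/F hearts lay above all 3 +/+ hearts at 9.48% of the loci tested and below them at 9.12%. Among the called loci they did so at 852 of the 1112 that rose and 601 of the 716 that fell. At 213 further risen loci and 87 further fallen loci the 3 F/F hearts other than replicate 3 lay outside the +/+ range. Called loci lay on all 19 autosomes and X, from 3.70% higher on chromosome 12 to 6.65% on chromosome 15, and from 1.59% lower on X to 5.95% on chromosome 19.

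The 4 F/F hearts did not respond evenly. At loci that rose, the highest heart was replicate 1 at 699, replicate 2 at 344, replicate 4 at 60 and replicate 3 at 9. Replicate 3 was the lowest of the 4 at 831 of the 1112. The median log2 difference from the +/+ hearts at these loci was 1.55 in replicate 1, 1.39 in replicate 2, 0.82 in replicate 4 and 0.49 in replicate 3, and 882, 793, 416 and 141 loci passed 2-fold. At the 716 loci that fell, the medians were -0.97, -0.96, -0.46 and -0.41 in the same order, and the heart with the fewest reads was replicate 1 at 347 and replicate 2 at 321. These loci were called from the same hearts, so these values describe them. Over all risen loci the order from the largest median was male, female, male and female (replicates 1, 2, 4 and 3). The part of sex in this order was not tested.

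Loci called in the 14 mice with Uprt alone offer a set chosen in other mice. There 879 loci (4.85% of 18135) were higher and 490 (2.7%) lower in Lmna F/F. Set against the 3 +/+ hearts without Uprt, which took no part in that choice, the median log2 difference at the 879 loci was 1.52 in replicate 1, 1.29 in replicate 2, 0.77 in replicate 4 and 0.40 in replicate 3. At the 490 loci it was -0.92, -0.85, -0.32 and -0.24. Even in replicate 3, 84.5% of the 879 loci were above and 81.6% of the 490 below the mean of the +/+ hearts. The median over all 14103 loci with a mean of at least 1 CPM lay between -0.04 and 0.01 in these hearts.

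Against the 8 Lmna +/+ hearts with Uprt, which are also the controls of those calls, the medians at the 879 loci were 1.55, 1.32, 0.78 and 0.40 in replicates 1, 2, 4 and 3. The 6 F/F hearts with Uprt, from which the loci were chosen, lay between 0.66 and 0.99. Replicates 1 and 2 were thus above and replicate 3 below all 6 of these. The +/+ hearts without Uprt lay between -0.04 and 0.03. At the 490 loci the medians of replicates 3 and 4 from this reference, -0.23 and -0.32, depend on the scaling: by library size alone they were -0.01 and -0.15. Loci past 2-fold from the same reference numbered 1095 higher and 681 lower in replicate 1, 937 and 599 in replicate 2, 394 and 84 in replicate 4, and 233 and 130 in replicate 3. In the 3 +/+ hearts they numbered 43 to 98 higher and 98 to 143 lower, so all 4 F/F hearts had more rises past 2-fold than any +/+ heart. For falls past 2-fold, replicate 3 lay within and replicate 4 below the range of the +/+ hearts.

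**Figure D1:**
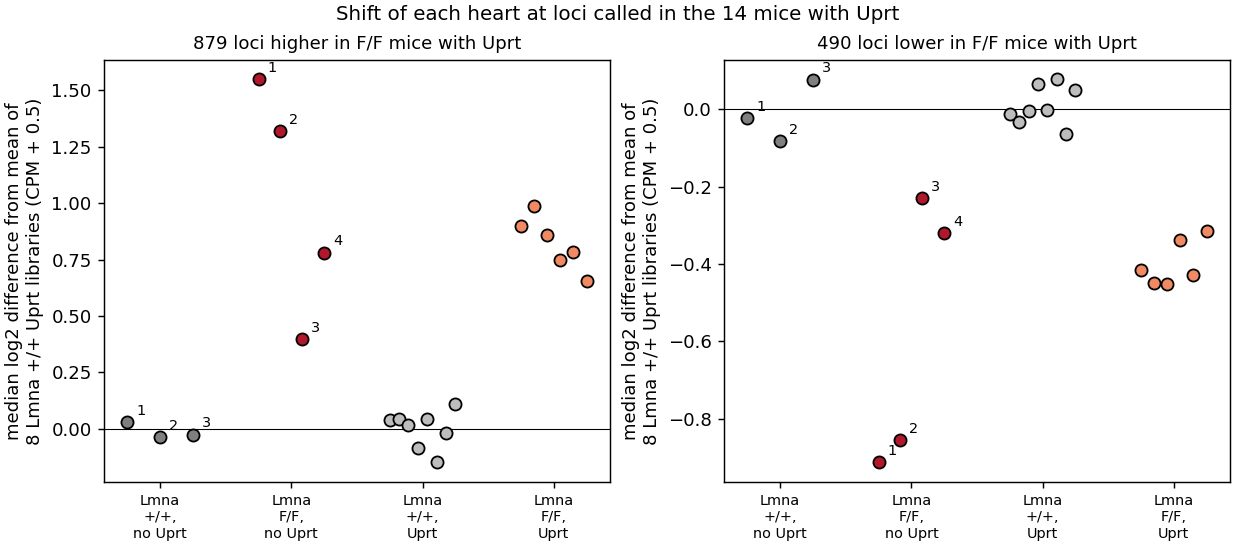
Each point is 1 library: the median, over loci called in the 14 mice with Uprt, of its log2 difference from the mean of the 8 Lmna +/+ Uprt libraries, for 879 loci higher (left) and 490 lower (right); numbers mark replicates. Replicates 1 and 2 of Lmna F/F without Uprt lie at 1.55 and 1.32 on the left, replicate 3 at 0.40, and the 3 +/+ hearts without Uprt between -0.04 and 0.03.

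Spread within the groups showed the same pattern in its upper end. The median absolute log2 difference of a pair of F/F hearts was lowest for replicates 1 and 2 (0.23, with 389 of 14103 loci past 2-fold) and highest for replicates 1 and 3 (0.35, 1540 loci). Replicates 3 and 4 differed by 0.26 (683 loci), and the 3 pairs of +/+ hearts by 0.21 to 0.22 (320 to 415 loci). With Uprt, pairs of Lmna +/+ hearts differed by 0.19 to 0.35 (269 to 1500 loci) and pairs of F/F hearts by 0.17 to 0.29 (147 to 602 loci). The widest pair of +/+ hearts with Uprt was thus close to the widest pair of F/F hearts without it. The median SD per locus was 0.27 among the F/F hearts without Uprt and 0.28 among the 8 +/+ hearts with Uprt, 0.23 among the 6 F/F hearts with Uprt and 0.19 among the 3 +/+ hearts without it. An SD over 1 was found at 222 loci in the F/F hearts without Uprt, against 87, 30 and 65 in those other 3 groups. An SD from fewer libraries varies more, and these values were not tested.

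**Figure D2:**
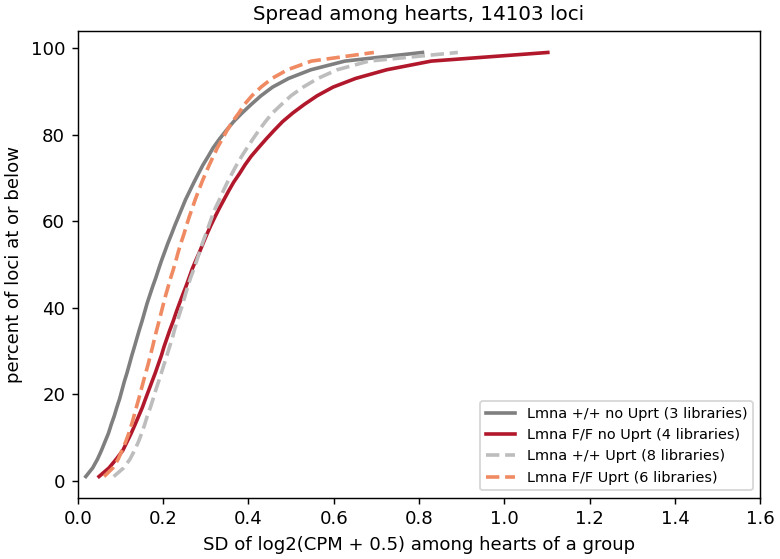
Percent of 14103 loci whose SD of log2(CPM + 0.5) among the hearts of a group is at or below the value on the horizontal axis, for the 4 groups. The line of Lmna F/F without Uprt runs beside that of Lmna +/+ with Uprt at the median (0.27 and 0.28) and lies to the right of the other 3 at its upper end, where 222 loci have an SD over 1.

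The loci described singly are the 15 largest changes per direction among calls that held with each library left out, a mean of 1 CPM or more, and no overlap of the groups; 299 rises and 89 falls met these conditions. That the groups do not overlap at these loci follows from these conditions. All 30 missed the threshold in the 7 libraries alone (adjusted p from 0.0511 to 0.094, edgeR). Without F/F replicates 1 and 2 together, 9 of the 15 rises and 7 of the 15 falls were still called. The limma fit lost 5 of the 30.

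The most abundant of the 15 that rose was at chrX:20740872-20740974 (+ strand). It measured 3.51, 2.76 and 3.94 CPM in the +/+ hearts and 489, 396, 19.5 and 96.0 CPM in F/F replicates 1 to 4. Replicate 1 was 25.01 times replicate 3. The log2 change was 6.61 ± 0.79 (SE; adjusted p = 8.63e-05, edgeR, n = 4 and 3).

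At chr4:63878022-63878669 (− strand) the +/+ hearts held 0.301, 0.304 and 0.379 CPM and the F/F hearts 90.1, 81.7, 1.49 and 10.4 CPM, a log2 change of 7.34 ± 1.02 (adjusted p = 0.000289, edgeR). This locus had the widest spread of all called loci with at least 5 CPM in the F/F hearts, an SD of 2.63 on the log2 scale. The 2 hearts that were high were again replicates 1 and 2.

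The transcript ENSMUST00000031243.15 at chr5:104588485-104588916 (+ strand) measured 0.110, 0 and 0.126 CPM in the +/+ hearts, 10 reads in all. In F/F replicates 1 to 4 it measured 30.5, 42.5, 1.37 and 2.66 CPM, 3189 reads in all. The fitted log2 change, 7.63 ± 1.40 (adjusted p = 0.00159, edgeR), is the largest among the named loci and rests on few control reads. The call was lost with DESeq2 and with the limma fit (adjusted p = 0.127), and without replicates 1 and 2 the change was 4.48 with an adjusted p of 0.096.

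On the same chromosome, ENSMUST00000031264.12 at chr5:100701591-100701854 (− strand) had 1 read in the 3 +/+ hearts and 351 in the F/F hearts. That is a ratio of 251.1, with a 95% interval from 44.8 to 9945 that covers counting error only. Its F/F values were 3.00, 3.80, 0.390 and 1.12 CPM (adjusted p = 0.000539, edgeR). Replicate 3 was lowest here too, and this held at 13 of the 15 loci.

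At chr10:81034004-81035194 (− strand) the +/+ hearts measured 2.25, 3.37 and 1.92 CPM. The F/F hearts measured 89.8, 139, 7.81 and 19.9 CPM, a log2 change of 4.68 ± 1.01 (adjusted p = 0.00549, edgeR). The change without replicates 1 and 2 was 2.56 with an adjusted p of 0.22, so the call there needs those hearts.

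At chr9:71202893-71203525 (+ strand) the values were 1.51, 0.481 and 1.24 CPM in +/+ and 56.4, 33.8, 3.83 and 8.59 CPM in F/F, a log2 change of 4.85 ± 0.68 (adjusted p = 0.000289, edgeR). This one was also called without replicates 1 and 2 (2.79, adjusted p = 0.0032). The remaining 9 loci rose by 4.45 to 7.02 on the log2 scale, and none of the 15 had a mean over 3.40 CPM in the +/+ hearts. They lie at chr3:92391259-92391564, chr7:46361422-46361549, chr11:81927309-81928276, chr2:24239643-24241506, chr11:81937917-81938351, chr8:70956485-70956731, chr6:144939561-144945988, chr7:19405504-19405685 and chr7:127749367-127749829. The highest heart was replicate 1 at 8 of the 15 and replicate 2 at 7.

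The 15 falls were smaller, from -2.85 to -1.28 on the log2 scale, and more even. At chr3:63388533-63388614 (− strand), the most abundant, the +/+ hearts measured 227, 505 and 504 CPM and the F/F hearts 126, 47.0, 81.8 and 81.6 CPM. Replicate 2 was lowest, and replicates 3 and 4 were lower than replicate 1. The log2 change was -2.06 ± 0.31 (adjusted p = 0.000377, edgeR), and it was -2.10 without replicates 1 and 2 (adjusted p = 0.0075).

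ENSMUST00000195577.2 at chr3:41697091-41698354 (+ strand) had the largest fall, from 2.44, 2.94 and 1.54 CPM in +/+ to 0.0469, 0.275, 1.00 and 0.634 CPM in F/F (log2 -2.85 ± 0.59; adjusted p = 0.00385, edgeR). It was nearest to the +/+ range in replicate 3. The call was lost in males alone (adjusted p = 0.052, edgeR) and without F/F replicates 1 and 2 (adjusted p = 0.0973). With Uprt that locus changed by -0.24 ± 0.40 (adjusted p = 0.811, edgeR). ENSMUST00000114684.8 at chr6:42287857-42287936 (+ strand) fell from 5.01, 1.87 and 2.44 CPM to 0.281, 0.325, 0.805 and 1.19 CPM (-2.45 ± 0.43; adjusted p = 0.00108, edgeR). Here replicate 4 was nearest to the +/+ range.

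At chr8:105321752-105325658 (+ strand) reads fell from 85.5, 69.4 and 54.5 CPM to 17.5, 22.3, 40.6 and 36.5 CPM (-1.37 ± 0.23; adjusted p = 0.000937, edgeR), with replicates 1 and 2 lowest. At chr11:3847579-3851296 (+ strand) they fell from 46.7, 42.7 and 37.3 CPM to 8.83, 15.9, 24.8 and 16.8 CPM (-1.49 ± 0.22; adjusted p = 0.000332, edgeR). At chr8:120171729-120172995 (+ strand) the +/+ hearts held 7.70, 4.43 and 4.66 CPM and the F/F hearts 1.73, 2.45, 2.03 and 1.66 CPM (-1.76 ± 0.29; adjusted p = 0.000776, edgeR), and replicate 4 was the lowest. The lowest heart was replicate 1 at 9 of the 15 falls and replicate 2 at 4.

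**Figure D3:**
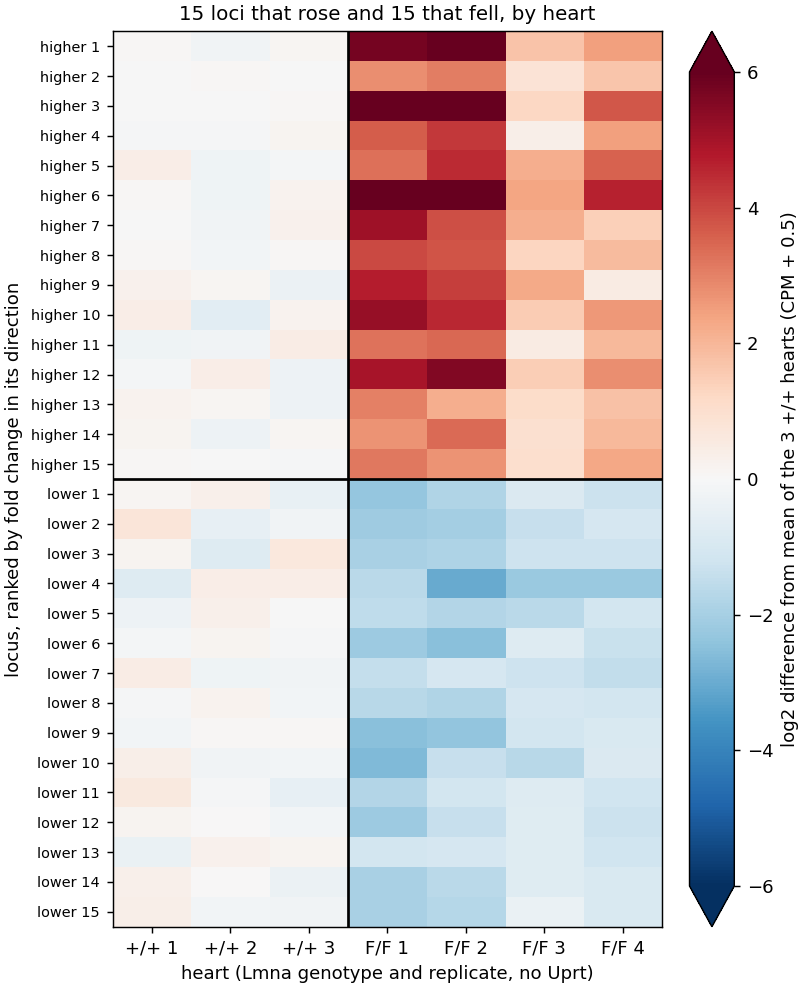
Log2 difference of each of the 7 hearts from the mean of the 3 +/+ hearts (CPM + 0.5) at the 15 named loci per direction, ranked by fitted change; red is higher and blue lower, and the colours end at -6 and 6. Columns F/F 1 and F/F 2 are deepest in colour among the rises, and F/F 3 is the palest F/F column at 13 of the 15.

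Among the 8 called loci with the widest spread in the F/F hearts, 4 were among the rises above at chr4, chr5:104588485, chrX and chr10, and another was at chr11:81937917-81938351 (18.3, 12.5, 3.07 and 0.511 CPM). Of the others, chr7:126374626-126374821 measured 40.4, 30.2, 2.22 and 2.62 CPM in the F/F hearts and 2.05, 3.11 and 1.94 CPM in +/+. Replicates 3 and 4 were thus inside the +/+ range, and the call (log2 3.69 ± 1.16, adjusted p = 0.0463, edgeR) was lost without replicates 1 and 2 (adjusted p = 0.89), with DESeq2, limma, no sex term or males alone, and without either of those replicates or any +/+ heart. With Uprt, the Lmna +/+ hearts at this chr7 locus ran from 1.79 to 54.7 CPM (median 2.58), the highest above every F/F heart without Uprt. The log2 change with Uprt was -0.38 ± 0.81 (adjusted p = 0.86, edgeR). At chr9:7455691-7455975 replicates 1 and 2 measured 16.8 and 17.9 CPM, replicate 4 5.60 and replicate 3 0.293 CPM, below all 3 +/+ hearts (0.904, 0.380 and 3.50). That call was lost with no sex term and without F/F replicate 1, F/F replicate 2, +/+ replicate 1 or +/+ replicate 2.

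The eighth, chr18:60401377-60402837 (− strand), had another order. Its F/F hearts measured 4.48, 0.724, 1.17 and 20.0045 CPM and its +/+ hearts 1.07, 0.506 and 0.632 CPM (log2 3.16 ± 0.98; adjusted p = 0.0432, edgeR). Replicate 4 was highest and replicate 2 lay within the +/+ range. The call was lost with limma (adjusted p = 0.228), without F/F replicate 1 or 4, without any of the +/+ hearts, and without F/F replicates 1 and 2 together (0.0623). It is 1 of the 60 risen loci at which replicate 4 was the highest F/F heart, 32 of them with at least 5 CPM in the F/F hearts; the next loci were picked from these after their values were seen.

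At chr9:45018743-45019832 replicate 4 measured 35.3 CPM, against 4.12, 10.2 and 3.68 CPM in replicates 1 to 3 and 0.520, 0.962 and 5.44 CPM in +/+. At chr11:58097192-58098391 it measured 74.7 CPM against 37.3, 11.8 and 15.4, and at the neighbouring chr11:58078565-58079838 it measured 11.5 CPM against 4.57, 3.32 and 2.37. At chr18:60945235-60945724 replicates 4 and 1 were high (109 and 79.2 CPM) and replicates 2 and 3 lower (46.6 and 31.6 CPM), above +/+ hearts at 28.8 to 30.7 CPM. The 2 high hearts there are the 2 males, and the part of sex in this order was not tested. The call on chr18 was kept with each library left out, but lost without F/F replicates 1 and 2 together (adjusted p = 0.0686, edgeR). The calls on chr9 and chr11 were lost with limma, without +/+ replicate 1 or 2 and without F/F replicate 4. Those on chr11 were also lost without +/+ replicate 3 or F/F replicate 1. The call on chr9 was also lost with no sex term and in males alone (adjusted p = 0.0644, edgeR). That at chr11:58078565-58079838 was also lost without F/F replicates 1 and 2 together (adjusted p = 0.0732, edgeR). Over all 1112 risen loci, by contrast, the median difference of replicate 4 was below those of replicates 1 and 2.

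Other loci rose evenly. The 2 calls of the 7-library fit without a sex term were of this kind. At chr7:4143106-4143451 (+ strand) the +/+ hearts measured 0.247, 0.557 and 0.421 CPM and the F/F hearts 4.94, 3.87, 2.95 and 4.62 CPM (log2 3.28 ± 0.40; adjusted p = 9.12e-05, edgeR, in the fit of 21 libraries). At chr19:17303507-17306436 (− strand) they measured 1.51, 2.10 and 1.83 CPM and 6.84, 8.61, 11.4 and 8.59 CPM (2.26 ± 0.33; adjusted p = 0.000377, edgeR), and here replicate 3 was the highest. With Uprt, the Lmna +/+ hearts measured 2.32 to 8.14 CPM there (mean 6.31) and the F/F hearts a mean of 8.09 CPM. The log2 change with Uprt was 0.35 ± 0.21 (adjusted p = 0.397, edgeR). Its T>C share was 42.8%, 39.7%, 2.57% and 52.6% in F/F replicates 1 to 4 without Uprt, and 1.82% to 9.20% in the +/+ hearts. At chr2:5298268-5303793, the most even locus by SD among calls past 2-fold that held without each library and had at least 5 CPM in the F/F hearts, the F/F hearts measured 12.3, 12.1, 10.2 and 8.26 CPM and the +/+ hearts 3.71 to 5.29 CPM.

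Loci that rose were in places close neighbours. Joining risen loci whose starts lay within 200 kb gave 5 stretches of 6 or more. Stretches depend on how densely loci lie and were described, not tested. Each starts and ends at a risen locus, which raises the share risen within it, and its median is over the risen loci. Over all loci tested, 5.42% rose. On chr11:83416604-83597094 all 6 loci tested rose, by a median log2 change of 2.68. At the most abundant of them, chr11:83478708-83479650 (− strand), the +/+ hearts measured 19.8, 23.9 and 36.2 CPM and the F/F hearts 159, 208, 42.9 and 74.8 CPM (2.33 ± 0.39; adjusted p = 0.000843, edgeR). The groups did not overlap, and replicates 1 and 2 were high.

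On chr15:78146396-78506219, 8 of 11 loci rose (median 2.13), among them chr15:78504765-78506219 from 5.52 to 6.98 CPM in +/+ to 38.7, 24.6, 9.32 and 13.3 CPM, a call that was lost without F/F replicate 1. On chr1:170786186-171405816, 7 of 27 rose and 2 fell; chr1:171057148-171057489 went from 18.8, 16.02 and 19.9 CPM to 141, 84.7, 32.2 and 56.6 CPM (2.20 ± 0.32; adjusted p = 0.000305, edgeR). These stretches followed the order of hearts seen over all risen loci.

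Of the 2 stretches on chromosome 17, the first differed from that order. On chr17:34094642-34535648, 12 of 33 loci rose and 1 fell; 2 of the 12 had no read in the +/+ hearts, and with these at the floor the median remained 1.53. The mean log2 difference from +/+ was 1.56 in replicate 1, 1.03 in replicate 2, 0.56 in replicate 3 and 1.41 in replicate 4, so replicate 4 was above replicate 2. The 2 higher hearts are the 2 males, and the part of sex was not tested. At chr17:34501718-34501997 (− strand) the +/+ hearts measured 85.7, 68.3 and 80.6 CPM and the F/F hearts 325, 137, 127 and 284 CPM. At chr17:34534862-34535648 (+ strand) they measured 61.9, 47.4 and 55.6 CPM and 195, 80.7, 87.3 and 220 CPM. Both calls were lost without F/F replicate 1. At chr17:34534862-34535648 the hearts with Uprt measured 11.7 to 31.3 CPM in Lmna +/+ and 22.7 to 61.2 CPM in F/F. Those values are below the hearts without Uprt of the same Lmna genotype. At chr17:34501718-34501997 the T>C share was 48.9% in +/+ replicate 2 and 1.76% to 4.27% in the other hearts without Uprt. On chr17:35389970-35824074, 6 of 16 rose, with means of 1.86, 1.30, 0.40 and 1.22 in replicates 1 to 4, the order seen over all risen loci; at 1 of the 6, chr17:35658885-35662745, 97.5% of reads mapped to several places. Whether the order of hearts differs between stretches was not tested.

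**Figure D4:**
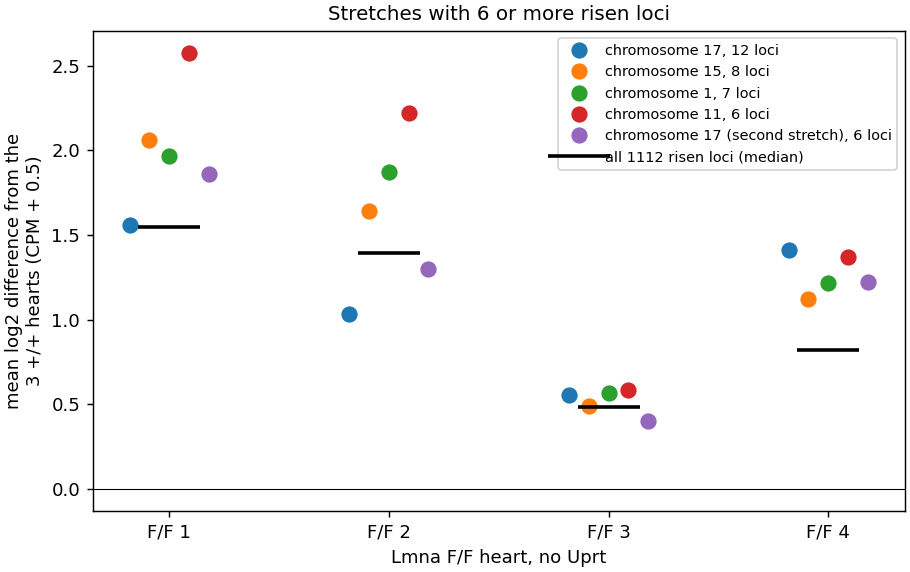
Mean log2 difference of each F/F heart from the 3 +/+ hearts over the risen loci of 5 chromosome stretches (coloured points), with the median over all 1112 risen loci as a black bar. The stretch with the most risen loci, 12 on chromosome 17, has its 2 highest hearts at replicates 1 and 4 (1.56 and 1.41), while the others are highest in replicates 1 and 2; the points include calls made from the same hearts.

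The fallen loci formed 1 stretch of 6, among 21 tested on chr11:3281915-4042226, with no rise among them. The median log2 change of the 6 was -1.16. This stretch too starts and ends at called loci, and 3.49% of all loci tested fell. At chr11:4041480-4042226 (− strand) the +/+ hearts measured 75.1, 60.9 and 75.2 CPM and the F/F hearts 24.2, 26.2, 50.5 and 41.4 CPM (-1.04 ± 0.19; adjusted p = 0.00133, edgeR). At chr11:3291728-3292971 (+ strand) they measured 36.2, 49.9 and 43.2 CPM and 10.6, 20.6, 24.3 and 25.02 CPM. Replicates 1 and 2 were the lowest at both.

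The mitochondrial intervals could be named, since both ends of all 16 lay exactly at an RNA gene of the reference table. They are the small and large ribosomal RNAs of the mitochondrion, mt-Rnr1 and mt-Rnr2, and transfer RNAs, which carry amino acids to its ribosomes. Of the 15 tested, 0 were called (edgeR; 6 at an unadjusted p under 0.05) and the lowest adjusted p was 0.0895, against 8.91% called and 23.0327% at an unadjusted p under 0.05 over all loci tested. The log2 differences ran from -0.54 for TrnS2 to 0.64 for TrnV, and 11 of the 13 transfer RNAs, which are cut from shared long transcripts, were below 0, against 48.7% of all loci. The intervals of these short RNAs can hold ends of reads from adjoining messages, and at 4 of them over 80% of reads mapped to several places.

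For mt-Rnr2, the most read locus of all, the +/+ hearts held 147919, 139005 and 156951 CPM and the F/F hearts 123464, 154752, 157705 and 134679 CPM (log2 -0.01 ± 0.16; adjusted p = 0.982, edgeR). TrnI, the isoleucine transfer RNA, had the +/+ hearts at 21754 to 28467 CPM and the F/F hearts at 13707 to 22252 CPM, and the ranges overlapped. At TrnL1, TrnW, TrnK, TrnG, TrnH and TrnS2 all F/F hearts lay below all +/+ hearts, as at 9.12% of all loci tested. TrnW, for example, measured 5031 to 6451 CPM in +/+ and 3105 to 4830 CPM in F/F. The ranges overlapped at the other transfer RNAs. In other settings TrnK was called with no sex term, TrnK and TrnD without F/F replicate 4, and TrnV without the low-count filter. The share of mitochondrial reads was 27.7% ± 1.41 (SD, n = 4) in F/F and 27.2% ± 0.875 (SD, n = 3) in +/+ hearts (two-sided exact permutation p = 0.743; the smallest p that 4 against 3 allows is 0.0571).

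The Lmna deletion was also measured with Uprt, in other mice. Of the 1112 loci that rose without Uprt, 97.1% were higher in F/F with Uprt, and of the 716 that fell, 95.5% were lower, while over all loci tested 67.2% had the same sign. In the mice with Uprt the same fit called 727 loci higher and 174 lower. The calls shared were 490 higher (44.1% of those without Uprt, 67.4% of those with it) and 76 lower (10.6% and 43.7%), and 0 loci were called in opposite directions. These comparisons share no library, though the fit gives them a common spread and sex effect. The median log2 change with Uprt was 0.75 at the 1112 loci and -0.27 at the 716; since these loci were chosen for the change without Uprt, the smaller value is no test of a difference.

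The difference between the 2 settings was tested itself. It was called at 0 of 20523 loci (edgeR interaction, 1743 at an unadjusted p under 0.05) and at 5 with DESeq2, where the log2 change without Uprt minus that with it was positive at 3 and negative at 2. Of the 30 named loci, 28 had the same sign with Uprt, and 11 rises and 4 falls were also called there. The exceptions were falls. With Uprt, chr8:120171729-120172995 changed by 0.24 ± 0.20 (adjusted p = 0.57, edgeR) and chr17:23065671-23069575 by 0.12 ± 0.22 (adjusted p = 0.837, edgeR). The locus on chrX measured a mean of 80.6 CPM in the 6 F/F hearts with Uprt and changed by 3.83 ± 0.44 on the log2 scale there. The locus at chr3:63388533 changed by -2.01 with Uprt and -2.06 without.

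T>C reads gave the background of the labelling. They made up 3.08%, 3.83% and 3.80% of reads in the +/+ hearts and 3.41%, 3.58%, 3.37% and 4.09% in F/F replicates 1 to 4, with counting intervals (95%, Wilson) of at most 0.00626 percentage points each way. The means were 3.57% ± 0.423 (SD, n = 3) and 3.61% ± 0.331 (SD, n = 4), and the groups overlapped (exact permutation p = 0.857, two-sided; 0.857 adjusted over 4 such measures). Nuclear loci had 3.15% ± 0.417 in +/+ and 3.53% ± 0.307 in F/F (exact p = 0.229, adjusted 0.457), and mitochondrial loci 4.69% ± 0.493 and 3.84% ± 0.699 (exact p = 0.114, adjusted 0.457). The 2 differences had opposite signs, and neither passed. In the 14 hearts with Uprt the nuclear share was 4.52% to 5.95%, above all 7 hearts without it.

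**Figure D5:**
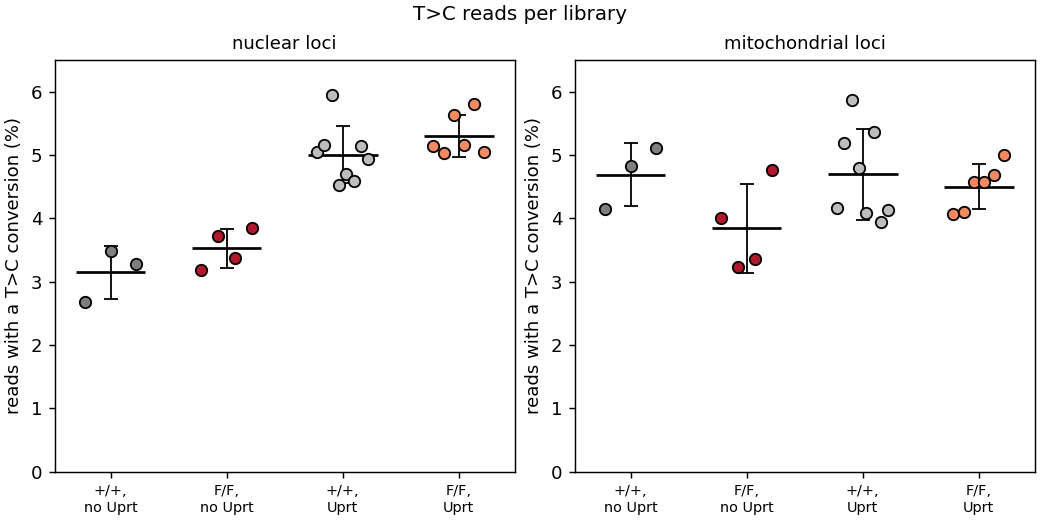
Percent of reads with a T>C conversion on nuclear (left) and mitochondrial (right) loci, 1 point per library, with the mean and SD of each group. The 7 hearts without Uprt lie at 2.68% to 3.85% on nuclear loci, below the 14 with Uprt, while the groups overlap on mitochondrial loci.

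Counts of T>C reads rose at 3 of 7552 loci (0.0397%) and fell at 0 in F/F hearts (edgeR, 640 at an unadjusted p under 0.05). At chr14:47623138-47623617 there were 4, 2 and 2 T>C reads in the +/+ hearts and 170, 161, 80 and 188 in the F/F hearts (adjusted p = 0.00966, edgeR), and all reads rose there as well, from 3.62 to 4.00 CPM to 138, 111, 22.9 and 45.2 CPM. At chr11:82007461-82007625 there were 5, 6 and 10 against 253, 96, 33 and 158 T>C reads (adjusted p = 0.0228, edgeR), and all reads rose from 1.82 to 2.36 CPM to 71.4, 31.6, 5.27 and 37.6 CPM. The call at the first was lost without +/+ replicate 3, and at the second without each of the +/+ hearts or F/F replicate 1.

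The third, chr9:44318957-44320072, was of another kind. Its T>C share was 1.09%, 0.767% and 2.63% in the +/+ hearts (95% Wilson bounds from 0.261% to 4.07%) and 22.2%, 30.8%, 30.2% and 26.1% in the F/F hearts (bounds from 19.9% to 33.2%). All reads there changed by 0.92 ± 0.31 with an adjusted p of 0.0651 (edgeR). The call was lost without +/+ replicate 1. As a share of the reads of a locus, T>C reads differed at 0 of 7545 loci (edgeR, 228 at an unadjusted p under 0.05).

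Shares that were high in some hearts and near 0 in others were common. Of 11781 loci with at least 50 reads in each of the 7 libraries, the median T>C share was 2.51%, and 655 reached 20% in some heart. At 375 of these another heart was under 5%; the high share was in a single heart at 206, in all 4 F/F and no +/+ heart at 3, and in all 3 +/+ and no F/F heart at 2. At chr10:40134463-40134675 the share was 49.8% and 48.0% in F/F replicates 1 and 2 (95% Wilson bounds from 44.3% to 53.002%) and at most 0.633% in the other 5 hearts (bounds up to 1.47%), with 677 to 1088 reads each. Whether such loci carry sequence variants was not tested.

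A locus of this kind stood out among those that rose. Summed over the 1112 loci the share was 4.71%, 5.62% and 5.81% in the +/+ hearts, 4.34%, 4.82% and 5.80% in F/F replicates 1 to 3, and 8.76% in replicate 4. In replicate 4, 31.6% of the T>C reads at these loci lay at chr8:94900056-94900196 (+ strand), where the share was 40.5% and 39.7% in replicates 3 and 4 (bounds from 39.5% to 41.3%) and 3.88% to 7.62% in the other 5 hearts. All reads there measured 457, 322 and 644 CPM in +/+ and 844, 1807, 338 and 2418 CPM in F/F (2.17 ± 0.57; adjusted p = 0.0182, edgeR), with replicate 3 inside the +/+ range. The call was lost with no sex term, without +/+ replicate 1 or 2, and without F/F replicates 1 and 2 together (adjusted p = 0.0846). Without this locus and chr2:121983132-121983564, the share in replicate 4 was 5.82%, and 4.00% to 5.17% in the other hearts.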

How the data were processed

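RNA of the left-ventricular free wall was alkylated (1.5 µg in 12 mM iodoacetamide) and made into stranded 3′ end libraries (QuantSeq FWD) read as single ends of 100 bases, per the labels' protocols. All libraries have the same pool label. The deposited table holds counts per 3′ UTR interval and library, per the file headers: reads, T>C reads, multimapped reads, bases over reference T and conversions over them. Its layout is that of SlamDunk. The submitters' processing notes name the build mm39; how reads were aligned, which annotation was used and whether known variants were masked is not given in the sources used here. Among its columns, 0 were of unlabelled samples.

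Overlapping intervals on a strand were reduced to the most read one and intervals sharing a transcript were summed, which made 46278 loci of 208307 intervals. The reference table (GRCm38.p6) matched 0 transcript IDs, so the gene lists, the marker check and the level of Lmna were not run. Nuclear loci are given by position, with 2 IDs per direction. The mitochondrial intervals were named by position.

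For all reads, a single quasi-likelihood fit (edgeR 4.0.16, R 4.3.3; TMM, glmQLFit, glmQLFTest, filterByExpr at a minimum count of 10) took all 21 libraries, a mean for each of 4 groups, and sex. T>C reads and T>C shares were fitted in the 7 libraries with sex. Each SE is the log2 change divided by the root of its F statistic. The threshold was an adjusted p of 0.05. Shifts use log2(CPM + 0.5) and loci with a mean of at least 1 CPM over all libraries. Library shares were compared by two-sided exact permutation. The alternatives were DESeq2 1.42.0, limma 3.58.1 with a weight per group for its spread, other scalings, filters and sample sets, and each library left out. Scripts were first tested on simulated counts.

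Loci named singly were the 15 largest changes per direction among calls held with each library left out, at a mean of 1 CPM or more without overlap, the 8 called loci of at least 5 CPM in the F/F hearts with the widest spread there, and called T>C loci; those highest in replicate 4, the even loci and the chromosome stretches were picked after their values were seen. The members and lists were chosen with earlier results of these data known.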

Additional observations from a re-analysis of the deposited data

How the results depend on the processing

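No paired analysis was possible because replicate numbers were given in accession order and pair no hearts. Against 1828 calls in all reads, the 7 libraries alone gave 2 without and 5 with a sex term, males alone 1021, and the omission of F/F replicates 1 and 2 together 144; leaving out 1 library gave 544 (without F/F replicate 1) to 2671 (without F/F replicate 3), with 863 to 1051 without 1 of the +/+ hearts and 1099 without F/F replicate 2. Other settings stayed within 1.5 times. For T>C reads, 3 calls became 84 with DESeq2, 5 without a sex term, 255 without the low-count filter, 6 without loci whose share reaches 20%, and 1 to 16 with 1 library left out (1 without +/+ replicate 3, 16 without F/F replicate 3). T>C shares per locus gave 0 calls, 1 without a sex term and 0 to 6 with 1 library left out. The difference between settings gave 0 calls, 5 with DESeq2 and 0 to 4 with 1 library left out. The difference in T>C share per library (F/F minus +/+) was 0.0397 percentage points, 0.381 on nuclear and -0.850 on mitochondrial loci, and -0.204 to 0.172 with 1 library left out. Under library size alone the median shift at the 490 loci was -0.55, -0.50, -0.01 and -0.15 in F/F replicates 1 to 4. The cause of these changes was not tested. Losses of single calls were counted over 33 loci, the 30 ranked by change and 3 more of the 8 with the widest spread. The T>C loci, the even loci, and the other loci highest in replicate 4 or in stretches are not in these counts. Several of their calls were lost with 1 library left out. Of the 33, the call was lost at 33 in the 7 libraries alone and 17 without F/F replicates 1 and 2. It was lost at 7 with limma, 3 with DESeq2 and up to 3 with 1 library left out, and no direction changed. The 30 were chosen as calls that held with each library left out, so only the 3 others could be lost that way. The loci at chr7:4143106 and chr19:17303507, picked as calls of the 7-library fit, are not among the 33. The alternatives added after seeing the data were the exclusion of loci with over 20% multimapped reads, of loci whose T>C share reaches 20% from the share test, and the +/+ hearts without Uprt as reference. The marker lists were not run. Loci with few reads in 7 libraries limit what T>C tests can show.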
